A study of Oryzias latipes with 10 samples.

Results

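Cytosolic chaperones and chaperonins were examined in livers of the medaka fish, Oryzias latipes, as 39 of the 14984 genes tested. They were chosen by symbol alone, as genes named for the HSP70, HSP90, HSP60 and small heat shock families, the J-domain proteins, the subunits of the TRiC chaperonin, prefoldin, the BAG proteins and the heat shock factors. The symbols matched 50 genes. The endoplasmic reticulum (ER) genes hspa5 and dnajb9 were left out by the choice, and 9 others did not reach 1 RPM (reads per 1000000 reads) in at least 5 of the 10 libraries. The name does not suit every gene chosen. As examples, hspa9, hspd1 and hspe1 act in mitochondria, hspa13 is a microsomal relative of HSP70, and hspb11 in mammals belongs to intraflagellar transport. The genes tcp11l1 and tcp11l2 share only the start of their symbol with the chaperonin gene tcp1. These examples are not a full list, since the place of each product in the cell was not examined.

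Cytosolic chaperones keep new and damaged proteins from aggregating and help them fold. HSP70 holds exposed stretches of a client in a cycle driven by ATP, J-domain proteins bring clients and start that cycle, and HSP110 and BAG proteins end it by exchanging the nucleotide. HSP90 finishes the maturation of kinases and steroid receptors, the ring-shaped TRiC chaperonin folds actin and tubulin with prefoldin as its delivery partner, and heat shock factors switch the inducible members on when unfolded proteins build up in the cytosol. The liver makes and secretes large amounts of protein, but secreted proteins fold in the ER with a set of chaperones of its own.

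The fish were phod1 knockouts (KO; the labels also write pd1) and wild types (WT), 5 libraries each, all kept under long days and sampled at noon. The labels give no sex, age, batch or mutant allele, and do not say whether each library is a separate animal, so the p-values speak only to the spread among these 10 libraries, which may be technical. Libraries were made with Lasy-Seq, which reads the 3' ends of transcripts, so a value is a share of reads and was not divided by length. Levels are given for each gene and are compared between groups. In a bulk sample, fewer cells of a type and less RNA per cell cannot be told apart.

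The libraries held 4542721 to 10112313 reads in KO and 5422342 to 9803543 in WT, which makes 1 read worth 0.0989 to 0.220 RPM in KO and 0.102 to 0.184 RPM in WT. No entry of the gene table was named phod1 or pd1, so the knockout was not checked at its own transcript. Of 17 hepatocyte markers sought, 6 were found under their symbols, and their summed level was 18980.5 to 25179 RPM in KO and 7856 to 18788 RPM in WT. The largest was hpx, at a mean of 12080 RPM in KO and 5159 RPM in WT. On the RPM as deposited, hpx was the only 1 of the 6 that passed (limma adjusted p = 0.00454). The log2 fold changes of fga, fgb and fgg were 0.86, 0.92 and 0.76, and those of rbp4 and serpinc1 0.03 and 0.14. After TMM scaling fga, fgb and fgg passed too (1.07, 1.13 and 0.97, limma adjusted p = 0.0479, 0.0295 and 0.0295). There rbp4 and serpinc1 still did not pass (limma adjusted p = 0.67 and 0.582). The 4 immune markers found summed to 855 to 1890.4 RPM in KO and 555 to 1812 RPM in WT, most of it lyz, a lysozyme gene. lyz had a log2 fold change of 0.56, while cd74, ptprc and spi1 were lower in KO (-0.73, -0.34 and -0.20). None of the 4 passed the limma test. Muscle markers summed to at most 1.76 RPM in any KO library and 3.67 in any WT library. The part of these markers in the results was not tested. WT3 and KO2 stood apart from their groups in the egg protein genes vit-6, ol-vit1 and 1-sf. These took 6.95% of reads in KO2 and 0.428% to 0.593% in the other KO libraries, while in WT3 they took 2.77%, against 10.4% to 13.98% in the other WT libraries. Scaling matters here, since the median log2 fold change of all tested genes was -0.19 on the RPM as deposited and -0.01 after TMM scaling.

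None of the 39 genes was called higher or lower in KO. A fold change here is the KO mean minus the WT mean of log2(RPM + 1), a scale on which changes of low genes come out too small, and limma with Benjamini-Hochberg adjustment over all tested genes called 0 of 39 at an adjusted p under 0.05, where 2.85% of all tested genes were called, 1.17% higher and 1.68% lower. At an unadjusted p under 0.05 limma held 8 of the 39, all lower in KO, against 11.7% of all tested genes lower and 4.64% higher at that level. After TMM scaling this one-sided count was gone: 4 of the 39 were at an unadjusted p under 0.05, 2 lower (cct7 and bag4) and 2 higher (hsp90ab1 and dnajb6), against 6.03% of all tested genes lower and 8.16% higher. The quasi-likelihood test of edgeR, on the 9 libraries other than KO5, called 0 of 39 by adjusted p. There 0.874% of all tested genes were called higher and 0.314% lower. At an unadjusted p under 0.05 edgeR had 1 of the 39, hsp90ab1, which was higher in KO. DESeq2, on the same 9 libraries, gave an adjusted p for 28 of the 39 and called 0. Of genes with an adjusted p, 4.03% were called higher and 2.33% lower. DESeq2 had 2 at an unadjusted p under 0.05, hsp90ab1 higher and cct7 lower in KO. No share of all tested genes at an unadjusted p under 0.05 is given for edgeR or DESeq2. Their counts at that level therefore cannot be compared with a background. None was called after TMM scaling, where 2.02% of all tested genes were higher and 0.874% lower, nor after median-of-ratios scaling, where 1.98% were higher and 0.954% lower, nor in any other of the 21 settings tried. Fold changes ranged from -0.77 to 0.79, with a median of -0.26 beside -0.19 for all tested genes. Of the 39, 30 had a fold change below 0, against 67.3% of all tested genes, and 26 did after TMM scaling, against 51.4%. On the RPM as deposited, the 95% interval of the fold change lay within 1 log2 unit of 0 for 25 of the 39, against 44.2% of all tested genes. For low genes among them, such as hsf2 (-0.77 to 0.99), 1 unit on this scale is more than 2-fold in RPM. A 2-fold change in RPM was therefore not excluded for all 25. The plot of fold changes gives every gene with its interval.

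**Figure D1:**
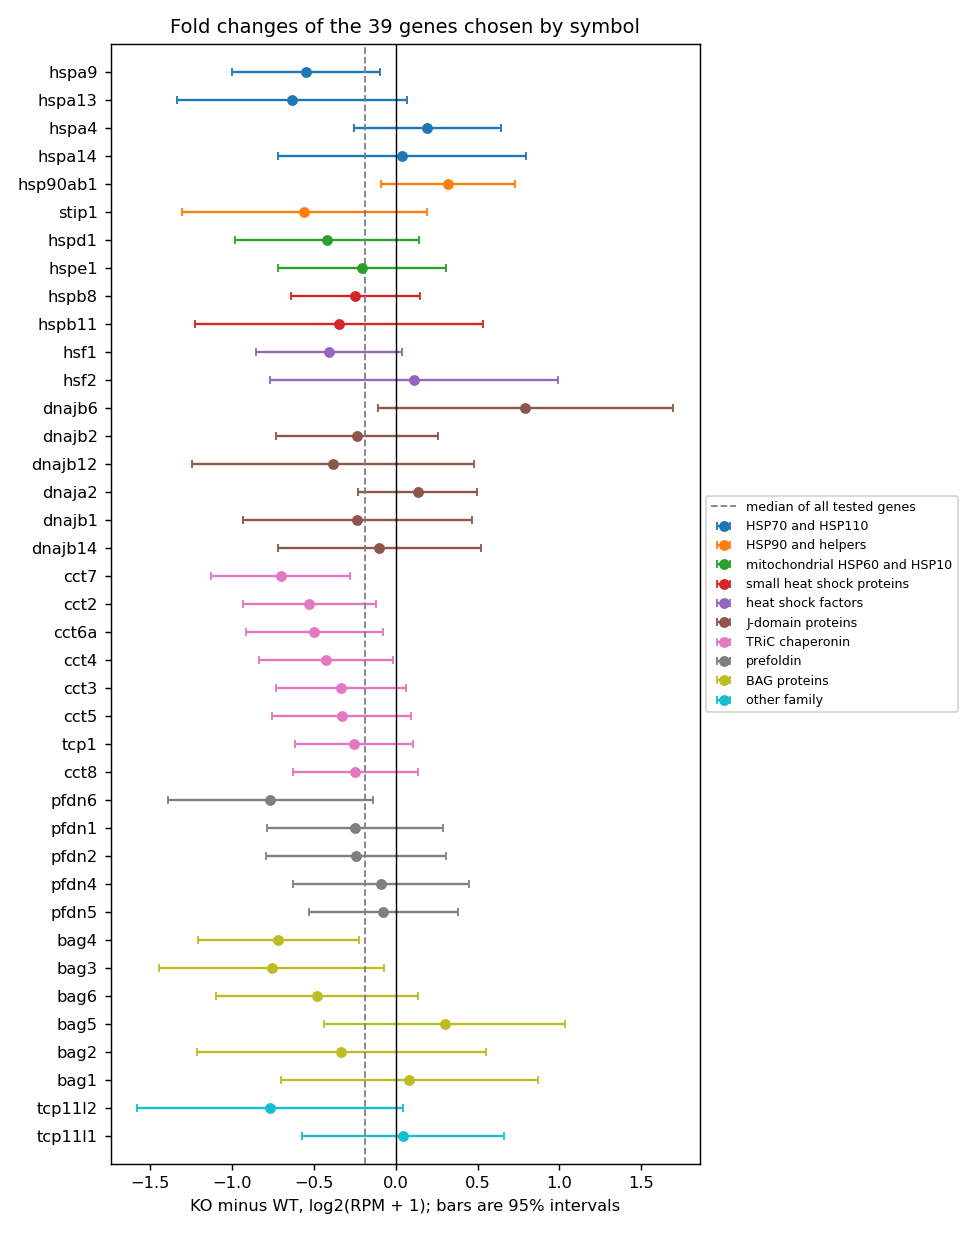
Log2 fold change of each of the 39 genes (KO minus WT, log2(RPM + 1), points) with its 95% interval from limma (bars), coloured by role, with the median of all tested genes as a dashed line. No gene passed an adjusted p of 0.05, and the fold changes run from -0.77 (pfdn6) to 0.79 (dnajb6).

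The cytosolic HSP90 gene found by its symbol was the most abundant of the 39 and did not pass the test. hsp90ab1, the constitutive cytosolic HSP90, had 2004, 1584, 2081, 2609 and 1508 RPM in KO1 to KO5, against 1703, 1216, 2039, 1571 and 1295 RPM in WT1 to WT5. KO4 was the highest and WT2 the lowest of the 10. KO3 and KO4 lay above all WT libraries and WT2 and WT5 below all KO libraries, and the remaining libraries overlapped. The log2 fold change was 0.32 ± 0.20 (SE), with a 95% interval of -0.09 to 0.73 and a limma adjusted p of 0.443. On the RPM as deposited, this interval leaves room for a level up to 1.66 times that of WT and for no fall larger than 1.07-fold. After TMM scaling the fold change was 0.53, with a limma adjusted p of 0.284. On the reads of 9 libraries it was 0.66 in edgeR (adjusted p = 0.26) and 0.64 in DESeq2 (adjusted p = 0.0938). The library left out of both count tests was KO5, the lowest KO library for this gene. In limma the fold change was 0.21 to 0.42 with 1 library left out. No interval is given here for the TMM, edgeR and DESeq2 estimates, so the limits above do not cover them. stip1, whose product passes clients between HSP70 and HSP90, was at 2.33, 6.60, 5.41, 8.72 and 5.24 RPM in KO1 to KO5, against 6.91, 8.58, 9.22, 16.01 and 4.18 RPM in WT1 to WT5. WT4 stood highest and KO1 lowest, with overlapping groups (-0.56 ± 0.36, limma adjusted p = 0.466).

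In the HSP70 and HSP110 group, none of 4 genes passed. hspa9, the mitochondrial HSP70 that also pulls imported proteins into the matrix, had 33.1, 37.9, 52.6, 65.8 and 62.6 RPM in KO1 to KO5, against 59.3, 72.3, 68.6, 70.8 and 90.2 RPM in WT1 to WT5. KO1 and KO2 were the lowest of all libraries and WT5 the highest, and KO4 and KO5 lay above WT1. Its log2 fold change was -0.55 ± 0.22 with a limma adjusted p of 0.209, and -0.34 after TMM scaling (limma adjusted p = 0.537). hspa13 ranged over 5.78 to 21.7 RPM in KO and 9.41 to 22.2 in WT (-0.63 ± 0.34, limma adjusted p = 0.366). The HSP110 gene hspa4, which exchanges the nucleotide of HSP70, averaged 22.2 ± 3.44 RPM in KO and 19.3 ± 2.28 RPM in WT (SD, n = 5 each), and hspa14, the HSP70 relative of the ribosome-associated complex, 5.86 ± 3.92 RPM in KO and 5.13 ± 1.51 RPM in WT, with limma adjusted p-values of 0.699 and 0.972. The groups overlapped in all 4.

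Another HSP70 gene carries the symbol hsc70 (synonym hspa1l in the gene table), which the choice by symbol did not catch. Only 8058 of the 14984 tested genes have a symbol. Genes without one, in the HSP70 family or any other family chosen here, were not looked for, so the families may be incomplete. hsc70 is described here because of its family, after its values were seen. hsc70 had 549, 614, 635, 758 and 640.0 RPM in KO1 to KO5, against 1042, 799, 762, 904 and 1013 RPM in WT1 to WT5. Every KO library lay below every WT library, as in 2.6% of all tested genes, by a narrow margin between KO4 and WT3. The log2 fold change was -0.50 ± 0.16 with a limma adjusted p of 0.121, so it did not pass. Without WT3 it did pass (-0.55, limma adjusted p = 0.0464), as it did without WT3 and KO2 (-0.54, limma adjusted p = 0.0492). In the other settings tried its adjusted p was 0.081 or more, and after TMM scaling the fold change was -0.29 (limma adjusted p = 0.526) and the groups overlapped. The genes hsp70-3 and hsp70-5 had almost no reads. hsp70-3 was at 0 in every KO library and at most 1.11 RPM in WT, and hsp70-5 was at most 0.333 RPM in KO and 0 in every WT library.

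**Figure D2:**
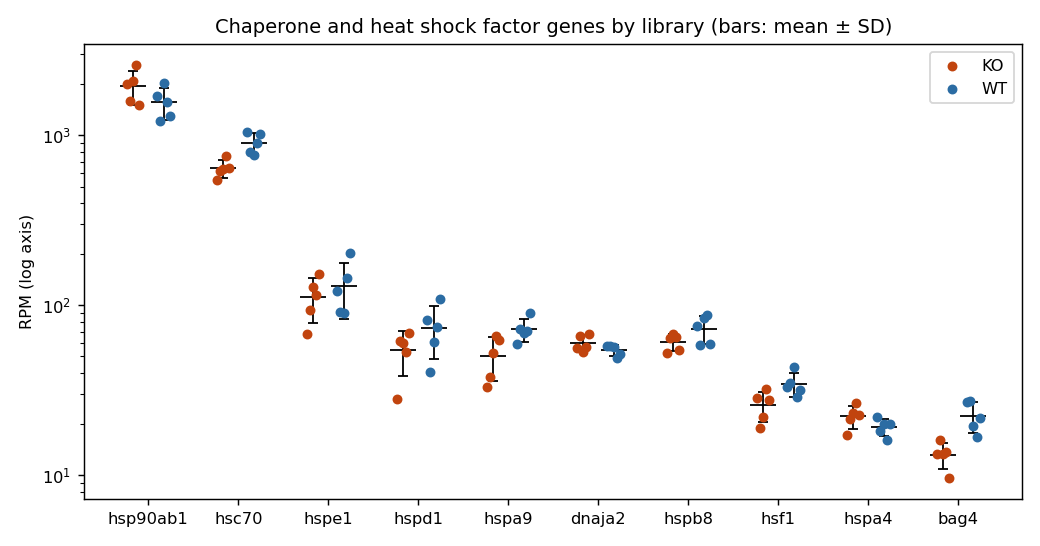
RPM by library (log axis) of 9 chaperone genes and of hsf1, with KO left of WT for each gene; horizontal marks and bars are the mean ± SD of 5 libraries. hsc70 and bag4 have every KO point below every WT point, as do 2.6% of all tested genes, and in the other 8 genes the groups overlap.

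The mitochondrial chaperonin genes hspd1 and hspe1 did not pass either. Their products, HSP60 and its lid HSP10, fold proteins in the matrix, and the 2 genes lie next to each other in the RefSeq gene table (assembly ASM223467v1). hspd1 had 27.98, 61.9, 59.9, 53.2 and 68.9 RPM in KO1 to KO5, against 82.4, 40.6, 60.9, 74.6 and 109 RPM in WT1 to WT5. KO1 was the lowest library and WT5 the highest, and KO2 to KO5 all lay above WT2. hspe1 had 67.6, 93.997, 127, 116 and 153 RPM in KO1 to KO5, against 122, 91.4, 90.2, 144 and 204 RPM in WT1 to WT5. KO1 was again the lowest library and WT5 the highest, and the groups overlapped. The log2 fold changes were -0.42 ± 0.27 and -0.21 ± 0.25, with limma adjusted p-values of 0.465 and 0.723.

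Neither heat shock factor gene and neither small heat shock gene was called. hsf1, the main activator of heat shock genes, had 28.3, 18.9, 22.01, 32.01 and 27.8 RPM in KO1 to KO5, against 33.01, 34.7, 43.3, 28.9 and 31.7 RPM in WT1 to WT5. KO4 lay above WT4 and WT5, and the other KO libraries lay below all 5 WT libraries (-0.41 ± 0.21, limma adjusted p = 0.358). hsf2, a second factor of the family, ranged over 1.43 to 7.13 RPM in KO and 1.04 to 5.90 in WT (0.11 ± 0.42, limma adjusted p = 0.927). Among small heat shock proteins, which hold unfolded clients without ATP, hspb8 had 52.1, 64.3, 67.99, 65.1 and 54.2 RPM in KO1 to KO5, against 75.4, 58.1, 84.1, 88.2 and 59.2 RPM in WT1 to WT5. WT2 and WT5 lay within the KO range (-0.25 ± 0.19, limma adjusted p = 0.548). hspb11, which in mammals is a subunit of intraflagellar transport (IFT25), ranged over 0.881 to 4.50 RPM in KO and 1.21 to 8.31 in WT and rests on few reads (-0.35 ± 0.42, limma adjusted p = 0.73). hspb6 and hspb7, known from muscle, were listed at 0 in all 10 libraries, where 3 reads would be 0.297 to 0.660 RPM in KO and 0.306 to 0.553 RPM in WT.

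Of the 6 J-domain genes 4 had a fold change below 0, against 67.3% of all tested genes, and none of the 6 was called. dnaja2, a partner of HSP70 in the cytosol, had 55.96, 65.8, 52.9, 56.7 and 68.1 RPM in KO1 to KO5, against 57.2, 57.8, 56.4, 49.1 and 51.4 RPM in WT1 to WT5. KO2 and KO5 lay above all WT libraries, and the other KO libraries lay within the WT range. The log2 fold change was 0.13 ± 0.17 with a 95% interval of -0.23 to 0.50 (limma adjusted p = 0.748). After TMM scaling dnaja2 was the only one of the 39 genes whose groups did not overlap, at 54.8 to 72.4 in KO and 43.9 to 53.5 in WT, where 2.14% of all tested genes had every KO library above every WT library and 0.941% every one below. It did not pass there (0.34, limma adjusted p = 0.372). dnajb6, which in mammals holds back aggregation of polyglutamine proteins, had the highest fold change of the 39 at a low level, with 1.83, 3.30, 4.55, 3.23 and 3.56 RPM in KO1 to KO5, against 4.15, 0.175, 0.922, 3.47 and 0.612 RPM in WT1 to WT5. WT2, WT3 and WT5 stayed under 1 RPM while WT1 and WT4 lay within the KO range (0.79 ± 0.43, limma adjusted p = 0.378). dnajb2, whose product sorts HSP70 clients to the proteasome, ranged over 12.3 to 22.7 RPM in KO and 16.4 to 26.3 in WT (limma adjusted p = 0.666). dnajb1, dnajb12 and dnajb14 had fold changes of -0.24, -0.39 and -0.10, and dnajb1, the classical inducible J-domain partner of HSP70, averaged 6.40 ± 3.10 RPM in KO and 7.31 ± 1.81 RPM in WT.

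All 8 subunit genes of the TRiC chaperonin found had lower mean RPM in KO, and none of them passed the test. Together they summed to 473, 527, 626, 613 and 555 RPM in KO1 to KO5, against 713, 622, 694, 788 and 875 RPM in WT1 to WT5. KO3 lay just above WT2, and all other KO sums lay below all WT sums. The fold changes ran from -0.70 in cct7 to -0.25 in cct8. Their median was -0.38, beside -0.19 for all tested genes, of which 67.3% had a fold change below 0. TRiC was the tightest role group, with SEs of 0.17 to 0.20. Its median SD within groups was 0.27 log2 units, beside 0.52 for all tested genes. The mean RPM of the subunit genes was 53.6 (cct7) to 96.1 (cct4), against a median of 7.76 for all tested genes. The part of this level in the spread was not tested. cct7 had 32.8, 30.8, 49.1, 46.9 and 43.7 RPM in KO1 to KO5, against 62.4, 53.7, 63.8, 66.8 and 85.99 RPM in WT1 to WT5. All KO libraries lay below all WT libraries, and the log2 fold change was -0.70 ± 0.20 with a 95% interval of -1.13 to -0.28. Its limma adjusted p of 0.0706 was the smallest of the 39. cct2 had 62.95, 54.2, 62.2, 77.8 and 62.2 RPM in KO1 to KO5, against 103, 77.4, 66.6, 109 and 113 RPM in WT1 to WT5. KO4 lay above WT2 and WT3, and the other KO libraries lay below all WT libraries (-0.53 ± 0.19, limma adjusted p = 0.172). cct4 ranged over 65.2 to 103 RPM in KO and 79.1 to 135 in WT (-0.43 ± 0.20, limma adjusted p = 0.284). cct6a, named for its groups after its values were seen, ranged over 38.5 to 73.1 RPM in KO and 75.4 to 98.5 in WT without overlap (-0.50 ± 0.20, limma adjusted p = 0.214). As in cct7 and cct6a, every KO library lay below every WT library in 2.6% of all tested genes. The adjusted p-values of cct3, cct5, tcp1 and cct8 in limma were 0.397 to 0.532.

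The library scale moved these values. After TMM scaling all 8 subunit genes still had fold changes below 0, against 51.4% of all tested genes. The median was -0.17, beside -0.01 for all tested genes. There cct7 stood at -0.50 (limma adjusted p = 0.269), and no subunit had groups without overlap. The scaled sums were 612, 477, 649, 693 and 581 in KO1 to KO5, against 649, 576, 629, 705 and 892 in WT1 to WT5, so the groups overlapped widely. KO1 and KO2 each held the lowest value of 4 subunit genes among all 10 libraries, and WT5 the highest value of 5. KO1 also had the smallest TMM factor, 0.773, against 0.886 to 1.11 in the other KO libraries and 0.981 to 1.12 in WT. Over all 39 genes KO1 was the lowest library of all 10 in 13, and WT5 the highest in 12. Without KO1 the median fold change of the 39 was -0.20, beside -0.13 for all tested genes.

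**Figure D3:**
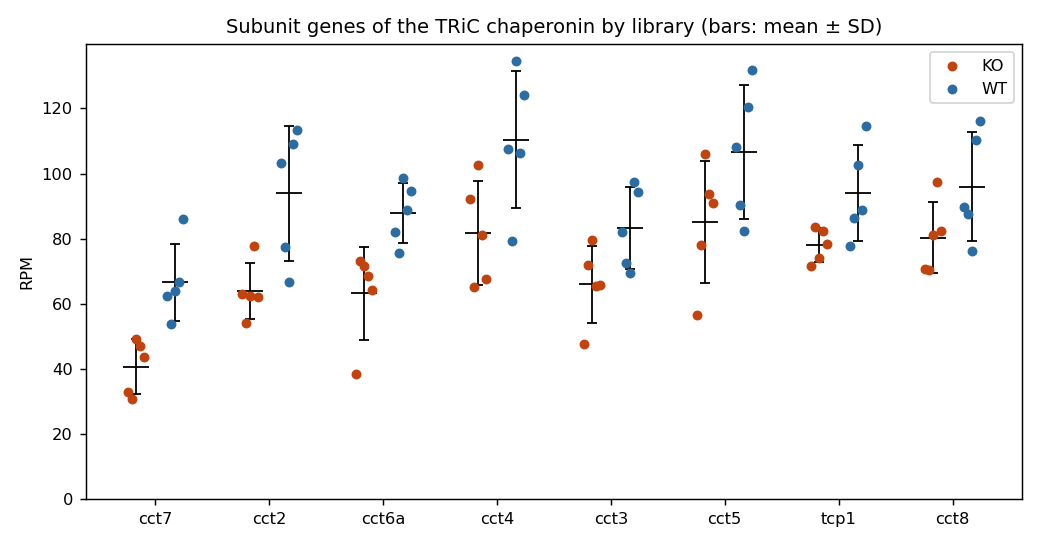
RPM by library of the 8 TRiC subunit genes, KO (left) and WT (right) for each gene, with the mean ± SD of 5 libraries. Every KO mean is below its WT mean, and only in cct7 and cct6a do the 2 groups not overlap. Of all tested genes, 67.3% have a fold change below 0 and 2.6% have every KO library below every WT library.

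Prefoldin, which hands unfolded actin and tubulin to TRiC, had 5 genes under its own symbols, all with fold changes from -0.77 to -0.08 and none called. pfdn6 had 4.50, 10.6, 10.1, 13.1 and 5.83 RPM in KO1 to KO5, against 19.7, 13.3, 12.5, 18.7 and 11.3 RPM in WT1 to WT5. Only KO4 reached into the WT range, where WT5 and WT3 were lowest (-0.77 ± 0.30, limma adjusted p = 0.202). pfdn5 ranged over 25.4 to 43.6 RPM in KO and 29.6 to 44.9 in WT and pfdn1 over 11.7 to 24.6 RPM in KO and 14.003 to 26.96 in WT, with fold changes of -0.08 ± 0.22 and -0.25 ± 0.26 and limma adjusted p-values of 0.897 and 0.671. Of all tested genes 67.3% were below 0 on the RPM as deposited. After TMM scaling 3 of the 5 prefoldin genes were below 0, against 51.4% of all tested genes. The subunit gene vbp1 lies outside the symbol choice and averaged 30.4 ± 4.33 RPM in KO and 34.4 ± 6.77 RPM in WT (limma adjusted p = 0.746).

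None of the 6 BAG genes was called, and 4 of them had a fold change below 0, against 67.3% of all tested genes. bag4, an inhibitor of death receptor signalling in mammals that binds HSP70, had 13.3, 16.1, 13.3, 13.6 and 9.59 RPM in KO1 to KO5, against 26.8, 27.5, 19.4, 16.8 and 21.8 RPM in WT1 to WT5. KO2, the highest KO library, lay just under WT4, the lowest WT library, so the groups did not overlap. The log2 fold change was -0.72 ± 0.23 with a limma adjusted p of 0.119, and -0.52 after TMM scaling, with overlap (limma adjusted p = 0.292). bag3, which pairs with HSPB8 to send misfolded proteins to autophagy, had 14.7, 5.50, 15.6, 12.5 and 17.9 RPM in KO1 to KO5, against 24.7, 35.2, 11.99, 15.4 and 29.4 RPM in WT1 to WT5. WT3 and WT4 lay within the KO range (-0.76 ± 0.33, limma adjusted p = 0.254). bag6, bag5, bag2 and bag1 had fold changes of -0.48, 0.30, -0.33 and 0.08. In all, 3 of the 39 genes (bag4, cct7 and cct6a) had every KO library below every WT library, against 2.6% of all tested genes, and 0 had every KO library above, against 1.03%.

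The 2 genes caught only by the start of their symbol were tcp11l2 and tcp11l1. tcp11l2 ranged over 1.67 to 11.2 RPM in KO and 4.59 to 8.23 in WT (-0.77 ± 0.39, limma adjusted p = 0.339) and tcp11l1 over 6.50 to 11.7 RPM in KO and 4.15 to 10.3 in WT (0.04 ± 0.29, limma adjusted p = 0.961). In tcp11l2 the 11.2 RPM was that of KO3, and the other KO libraries, at 1.67 to 3.00 RPM, lay below all WT libraries. Without KO3 the fold change of tcp11l2 was -1.14, which did not pass either (limma adjusted p = 0.097). Without the 2 tcp11 genes the median fold change of the remaining genes was -0.26, as with them. Of the 9 matched genes under the level required, dnajb4, hspb6 and hspb7 were at 0 in all 10 libraries, and hspa4l, the highest of the 9 in any library, reached 2.20 RPM in KO and 4.68 RPM in WT. Among the 39, the thinnest data were those of dnajb12, with 123 reads in the 9 libraries in which reads were recovered, and dnajb6, with 149, against 108953 for hsp90ab1.

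Genes of the wider folding machinery were examined beside the 39. Of 42 co-chaperones and folding factors outside the symbol choice, 0 were higher and 2 lower in KO, where 1.17% of all tested genes were higher and 1.68% lower, with a median of -0.17 beside -0.19 for all tested genes. tbcc, a tubulin folding cofactor, fell to 2.16 ± 0.892 RPM in KO, against 8.43 ± 2.11 RPM in WT (-1.59 ± 0.32, limma adjusted p = 0.00929). pdrg1, a prefoldin-like subunit, fell to 6.99 ± 4.77 RPM in KO, against 23.4 ± 10.97 RPM in WT (-1.75 ± 0.41, limma adjusted p = 0.0246), a call lost after TMM scaling (limma adjusted p = 0.0526). Median-of-ratios scaling (limma adjusted p = 0.0505) and no filter on low values (0.0977) ended the call of pdrg1 too, as did leaving out KO1, KO5, WT1, WT4 or WT5, at limma adjusted p-values of 0.0514 to 0.079. The test in edgeR called neither gene (adjusted p = 0.107 for tbcc and 0.181 for pdrg1). DESeq2 called pdrg1 (adjusted p = 0.0408) and gave no adjusted p for tbcc. Both genes had every KO library below every WT library, as did 2.6% of all tested genes. Of 16 mitochondrial folding genes, 3 of them among the 39, none passed, and the median was -0.22. The 11 immediate early genes tested, which respond to handling and acute stress, had a median of 0.07 and none passed. Of 14 ER folding genes 9 fell (6 in edgeR, 8 to 10 in the other settings), where 1.68% of all tested genes did. The median of the 14 was -1.28, and their summed level was 1693, 2122, 1519, 1707 and 1475 RPM in KO1 to KO5, against 6392, 5094, 2591, 7629 and 5264 RPM in WT1 to WT5. The ER list was known to be lower in these libraries when it was written down, so its count is no independent evidence.

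**Figure D4:**
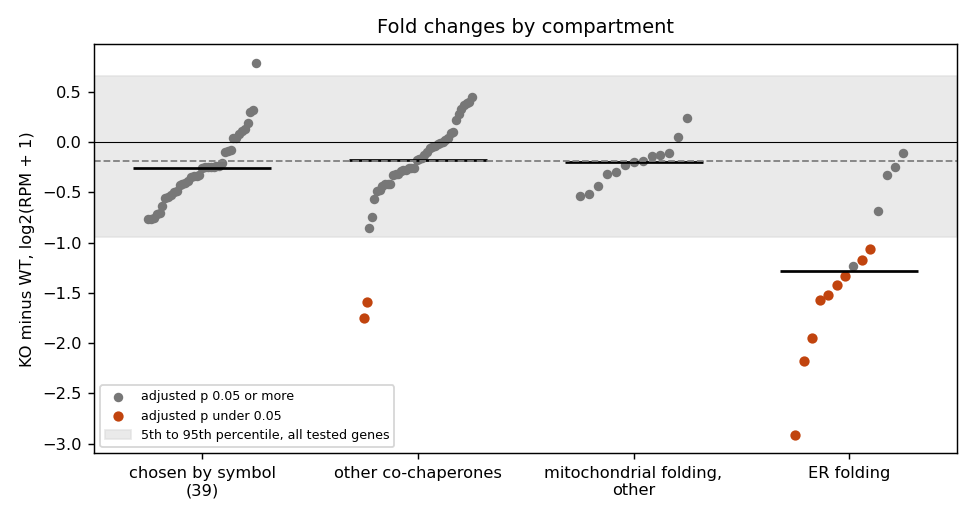
Log2 fold changes (KO minus WT, log2(RPM + 1)) of the 39 genes chosen by symbol, of co-chaperones outside the choice, of mitochondrial folding genes outside it, and of ER folding genes, with each list's median as a line. Called genes are coloured: 0 of 39, 2 of 42, 0 of 13 and 9 of 14, and the grey band spans -0.94 to 0.66, the 5th to 95th percentile of all tested genes.

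Whether a cytosolic or mitochondrial chaperone moved differently from its ER relative was tested as the ratio of both within each library, which does not depend on library scale except through the pseudocount. The 5 pairs were chosen by family after values had been seen. For HSP90, hsp90b1 is the ER member. The log2 ratio of hsp90ab1 over hsp90b1 was 2.45, 1.43, 2.53, 2.49 and 3.02 in KO1 to KO5, against 0.04, -0.34, 1.54, -0.23 and -0.41 in WT1 to WT5. KO2 lay just under WT3, and every other KO library lay above all WT libraries. The difference was 2.26 log2 units, with a two-sided exact permutation p of 0.0159 (n = 5 each, smallest possible 0.00794) and 0.0397 after Benjamini-Hochberg adjustment over the 5 pairs. The ratio of trap1, the mitochondrial HSP90, over hsp90b1 differed by 1.75 log2 units, with an exact permutation p of 0.0159, adjusted 0.0397. Both adjusted p-values were 0.0529 with a pseudocount of 0.5 and after TMM scaling. They were 0.0529 to 0.0794 without any 1 of KO1, KO3, KO4, KO5, WT1, WT2, WT4 and WT5. With 1 library left out the smallest p the exact test can give is larger than with all libraries. Those p-values therefore cannot tell how far the result rests on a single library. hsp90b1 was known to be lower in KO in these libraries, so the ratios are no independent evidence of a difference. trap1 itself ranged over 18.99 to 27.7 RPM in KO and 19.8 to 33.7 in WT (limma adjusted p = 0.691).

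In the HSP70 family the differences were smaller and did not pass. The ratio of hsc70 over hspa5, the ER HSP70, was 0.90, 1.14, 1.92, 1.78 and 1.84 in KO1 to KO5, against -0.07, 1.03, 1.34, -0.46 and 1.09 in WT1 to WT5. WT2, WT3 and WT5 overlapped with KO1 and KO2. The difference was 0.93 log2 units (adjusted exact permutation p = 0.0794), and 1.21 without WT3 and KO2 (0.107). Without WT3 and KO2 the smallest p the exact test can give is larger than with all libraries, so these p-values are not directly comparable. The ratio of hspa9 over hspa5 differed by 0.88 log2 units (adjusted exact permutation p = 0.175). On the RPM as deposited hspa5 itself was lower in KO (-1.43, limma adjusted p = 0.0199), so its ratios are no independent evidence of a difference. After TMM scaling hspa5 did not pass (-1.22, limma adjusted p = 0.055), and after median-of-ratios scaling it did (-1.23, limma adjusted p = 0.0497). For HSP110, the ratio of hspa4 over its ER relative hyou1 was -1.25 to -0.22 in KO and -3.35 to -0.59 in WT, a difference of 1.43 log2 units (adjusted exact permutation p = 0.0529). Without WT3 the difference was 1.84 (adjusted exact permutation p = 0.0265, where the smallest possible p is also larger than with all libraries). With all libraries hspa4 itself had a log2 fold change of 0.19, so most of the 1.43 came from lower hyou1 in KO. The ratio over hyou1 is therefore no independent evidence either. WT3 had the highest WT ratio in all 5 pairs.

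**Figure D5:**
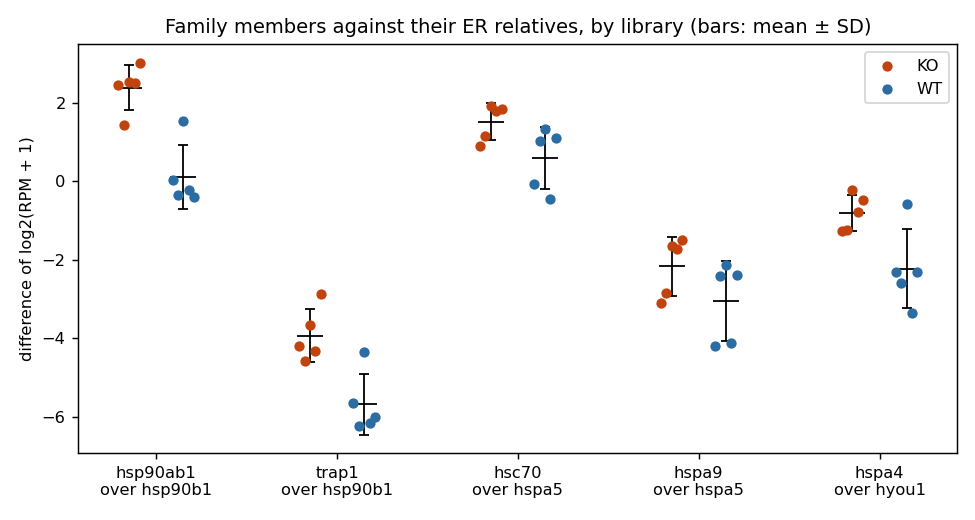
Difference of log2(RPM + 1) between a cytosolic or mitochondrial chaperone gene and its ER relative in each library, KO (left) and WT (right), with the mean ± SD of 5 libraries. In all 5 pairs the KO mean is higher, and WT3 is the highest WT point.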

How the data were processed

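Liver RNA was measured in 5 libraries of phod1 knockout and 5 of wild-type medaka, with groups and replicate numbers taken from the library titles. The authors deposited 1 table of RPM (reads per 1000000 reads) for 25795 genes, with a sum of 1000000 in each library and no division by length. Salmon 1.4.0 and BWA 0.7.17-r1188 are listed in the submitters' processing notes; their roles and the genome build are not given in the sources used here. Names came from RefSeq's genes of assembly ASM223467v1, where all 25795 IDs were found. Neighbours were taken from the order of gene starts on each chromosome there.

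A gene was tested if 5 or more libraries had 1 RPM or more, with limma 3.58.1 (R 4.3.3), log2(RPM + 1), a variance trend, no covariates, two-sided, with Benjamini-Hochberg adjustment over 14984 genes and a threshold of 0.05. Means are ± SD over 5 libraries, and fold changes ± SE. Values came out as whole reads for 100% of values (tolerance 1e-06). The reads of 9 libraries were tested with edgeR 4.0.16 and DESeq2 1.42.0; KO5, where 1 read is worth only 0.0989 RPM, did not pass a separate check of this step and was left out there. Pairs of libraries of 1 group, KO5 included, differed by a chi-square of 14.6 to 98.2 or, for WT3 with WT5, 140.1 per degree of freedom, so none was counted as a duplicate. Ratios within a library were tested by two-sided exact permutation with scipy 1.17.1. The fit was also run on simulated counts with the same spread setting for every gene and no outlying library, unlike the real data. Its outcome is not given here and does not bear on the results.

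The members and lists were chosen with earlier results of these data known. Genes named are the 2 with the smallest p and the 1 with the highest mean RPM of each role group; others were named after their values were seen. The settings varied were the pseudocount (0.5 and 5), the level required (none, and 5 RPM), TMM and median-of-ratios scaling, robust variances, the replicate number as a block, both count tests, each library left out in turn, and WT3 and KO2 left out together. Leaving out the tcp11 genes, the 5 ratios and the settings for genes outside the 39 were added after the data were seen. Promoter sequences were not analysed here.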

Additional observations from a re-analysis of the deposited data

Results flagged for a closer look

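Among the 56 sets of 5 libraries examined (23 named genes and 5 ratios, in each group), 3 held a library far from the other 4, where chance gives about 1 in 20 sets. KO2 stood above the other KO libraries in tcp11l1, at 11.7 RPM. KO3 stood above the other KO libraries in tcp11l2, at 11.2 RPM. WT3 stood above the other WT libraries in the log2 ratio of hsp90ab1 over hsp90b1, at 1.54, with hsp90b1 at 701 RPM in WT3, the lowest of its group. WT3 was also the WT library with the fewest egg protein reads, at 2.77%, and the part of that difference in the ratio was not tested.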

How the results depend on the processing

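The count of 0 called among the 39 genes, in either direction, held in all 21 alternatives and without the tcp11 genes. The smallest adjusted p of any of the 39 in any alternative was 0.0511, for cct2 without WT3. The median fold change of the 39 was -0.054 under TMM and -0.065 under median-of-ratios scaling, against -0.014 and -0.025 for all tested genes, and -0.34 to -0.20 with 1 library left out. Over all tested genes, 175 were higher and 252 lower, against 303 and 131 under TMM, 296 and 143 under median-of-ratios scaling, 73 and 103 with no filter, 424 and 621 without WT3 and KO2, and 94 to 365 and 104 to 479 with 1 library left out. DESeq2 called 310 higher and 179 lower, and edgeR 131 and 47. The ratio of hsp90ab1 over hsp90b1 differed by 2.27 log2 units under TMM, under median-of-ratios scaling and with a pseudocount of 0.5, and that of trap1 over hsp90b1 by 1.74 in each, both at an adjusted exact permutation p of 0.0529. With 1 library left out they ranged over 2.11 to 2.62 and 1.48 to 2.08, at adjusted exact permutation p-values of 0.0265 to 0.0794. Only without WT3 or without KO2 did both stay under 0.05. The smallest possible p is larger with 1 library left out, so a p-value above 0.05 there does not show dependence on that library. The ratio of hspa4 over hyou1 differed by 1.95 without WT3 and KO2 (adjusted exact permutation p = 0.0476), where the smallest possible p is larger than with all libraries. With 1 library left out it differed by 1.15 to 1.84. What moved these counts and differences was not tested. Same-numbered KO and WT libraries did not deviate together (correlations of -0.08 to 0.00083). These correlations cannot tell whether such libraries were sampled or handled as pairs, since a pairing need not show in the levels. With the replicate number as a block 145 genes were higher, 190 lower, 0 of the 39 were called, and pdrg1 was no longer called (limma adjusted p = 0.0557). Depth limits the low genes: dnajb6 had 1 to 37 reads in a library.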
